A study of Mus musculus with 2 samples.

Results

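The 8 genes described here make, carry and use creatine: Gatm and Gamt, which synthesize it, Slc6a8, which brings it into the cell, the creatine kinase genes Ckb, Ckm, Ckmt1 and Ckmt2, and Alpl, whose phosphatase acts on phosphocreatine. They were chosen by name from a table of 30649 gene names, in which 7 of the 8 stand under their own symbol and Alpl under its older symbol Akp2. They were measured by mRNA-seq of interscapular brown adipose tissue (BAT) from Taf7l KO mice, which lack the TFIID-associated factor TAF7L, and from wild-type (WT) mice, both on a C57BL/6 background. The Taf7l KO library was made from the pooled RNA of 6 mice and so was the WT library, so that there is 1 library per genotype. The differences therefore have no replicate check, no test between genotypes was possible, and values are given without a p-value or SD. The labels state an age of 1 month for both pools, but the source name of the KO pool states 3 months. Whether a difference between the libraries goes with genotype or with age therefore cannot be told apart if the second label is right. No deletion specific to fat is described for the line, and the pads were excised by hand, so the libraries hold RNA of all cells of the excised tissue.

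Creatine is built from arginine and glycine. GATM, in mitochondria, makes guanidinoacetate, and GAMT adds a methyl group to it. Creatine kinases move phosphate between ATP and creatine. The brain form CKB and the muscle form CKM are classed as cytosolic. The ubiquitous form CKMT1 and the sarcomeric form CKMT2 work between the mitochondrial membranes. In skeletal muscle this system buffers ATP during contraction. In brown fat, phosphocreatine made by CKB can be hydrolyzed again by tissue non-specific alkaline phosphatase, the product of Alpl, so that ATP is spent and heat is made in a cycle that does not need UCP1. For this reason Gatm, Gamt, Slc6a8, Ckb, Ckmt1 and Alpl are called creatine cycle genes below, and Ckm and Ckmt2 muscle kinases.

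The promoters of the kinase genes on which the comparison turns are shown because Ckm and Ckmt2 were both several-fold higher in KO BAT while Ckb was not. Each runs from 250 bases before to 50 bases after an annotated start on GRCm38.p6 and is written 5′ to 3′ on the strand of the gene. For Ckmt2 this start lies inside the RefSeq range of the gene, which ends at 91876923. Capitals mark every match, on either strand, to the E-box CANNTG, the site form bound by myogenic bHLH factors, and to the TATA form TATANA.
Ckm, chr7:19410844-19411143, plus strand: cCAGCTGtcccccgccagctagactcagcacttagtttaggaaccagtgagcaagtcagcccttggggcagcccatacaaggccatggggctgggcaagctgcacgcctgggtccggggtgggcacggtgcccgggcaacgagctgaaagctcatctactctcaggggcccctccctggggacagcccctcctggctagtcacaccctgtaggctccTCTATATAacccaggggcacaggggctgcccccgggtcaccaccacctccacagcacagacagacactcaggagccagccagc
Ckmt2, chr13:91876836-91877135, minus strand: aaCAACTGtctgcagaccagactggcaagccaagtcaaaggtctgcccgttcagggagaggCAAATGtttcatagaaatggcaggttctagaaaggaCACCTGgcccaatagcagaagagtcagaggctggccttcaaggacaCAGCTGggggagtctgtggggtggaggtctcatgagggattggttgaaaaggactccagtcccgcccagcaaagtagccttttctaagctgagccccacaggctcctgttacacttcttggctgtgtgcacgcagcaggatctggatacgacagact
Ckb, chr12:111672289-111672588, minus strand: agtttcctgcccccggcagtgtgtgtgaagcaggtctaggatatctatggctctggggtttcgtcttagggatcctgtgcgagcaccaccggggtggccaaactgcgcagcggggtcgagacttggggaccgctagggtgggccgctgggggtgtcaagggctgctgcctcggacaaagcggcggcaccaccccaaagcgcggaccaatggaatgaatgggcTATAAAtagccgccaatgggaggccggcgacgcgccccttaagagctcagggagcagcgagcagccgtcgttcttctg
The Ckm promoter held 1 E-box, a CAGCTG at position -249 from the start, and 2 overlapping TATA matches at positions -33 and -31. The Ckmt2 promoter held 4 E-boxes, at positions -248, -189, -153 and -107, of which the third is a CACCTG and the last a CAGCTG. It held no TATA match. The Ckb promoter held no E-box and had 1 TATA match at position -28. These forms do not separate the muscle kinases from the creatine cycle genes. Of 9 promoters of the creatine genes 7 held an E-box, those of Gatm, Gamt and Alpl and 1 of Ckmt1 among them, and the CAGCTG form was also found in Alpl and Ckmt1. Alpl and Ckmt1 each have more than 1 promoter among the 9, and Slc6a8 has none. The forms are common in general. Of 32841 mouse promoters of the same length, 72.3% held an E-box, 16.3% the CAGCTG form, 20.2% the CACCTG form and 24.7% a TATA match. CAGCTG and CACCTG are each a case of the E-box, and the CACCTG search also finds its reverse complement. The matches describe letters and say nothing of what binds there in these tissues.

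Expression was deposited as FPKM, fragment counts scaled to transcript length and to the number of mapped reads, with 1 row per UCSC transcript. Rows were summed per gene name. The comparison took in 12171 genes, those that reached 1 FPKM in KO, in WT or in both, and used log2((KO + 0.1)/(WT + 0.1)), a scale that understates differences of genes with low values. The median log2 ratio of all genes compared was 0.010. From the spacing of low values the depth was estimated as about 78540000 mapped reads in the KO library and 25940000 in the WT library. Taf7l itself came to about 1 read in each library, at 0.00734 FPKM in KO against 0.0222 FPKM in WT, so its level does not check the labels. Brown fat markers were present in both libraries. Of 10 such genes 7 were at least 1.5-fold lower in KO, against 12.7% of all genes compared. The others, Prdm16, Ebf2 and Zic1, were higher in KO, at 1.54-fold, 1.36-fold and 1.08-fold. The summed level of the 10 genes was 6464 FPKM in KO against 14677 FPKM in WT. Cox8b, Ucp1 and Cox7a1 were the largest parts of the WT sum, at 5937, 3720 and 3389 FPKM. All 22 skeletal muscle fibre markers were at least 3-fold higher in KO, against 2.05% of all genes compared. Their summed level was 2251 FPKM in KO against 187 FPKM in WT. In bulk tissue fewer cells of a type and less RNA per cell cannot be told apart.

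The creatine genes separated into those that were several-fold higher in Taf7l KO BAT, the muscle kinases, and those that stayed within about 2-fold of WT, the creatine cycle genes. Of the 7 genes compared, Ckm and Ckmt2 were at least 3-fold higher in KO, against 2.05% of all genes compared, and none was at least 3-fold lower, against 0.403%. At 1.5-fold, 3 were higher (Ckm, Ckmt2 and Slc6a8), against 16.5% of all genes, and Gatm was the 1 lower gene, against 12.7%. Ckmt1 reached 1 FPKM in neither library and was not compared. The muscle kinases had a median log2 ratio of 3.84. The median of the 5 creatine cycle genes compared was 0.49, so that the gap between the groups was 3.35 on the log2 scale. Rescaling 1 library against the other shifts both medians alike and leaves this gap as it is, apart from the pseudocount. Because the muscle fibre list moved in the same direction as the muscle kinases, its values stand beside theirs below; its part in their difference was not tested.

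**Figure D1:**
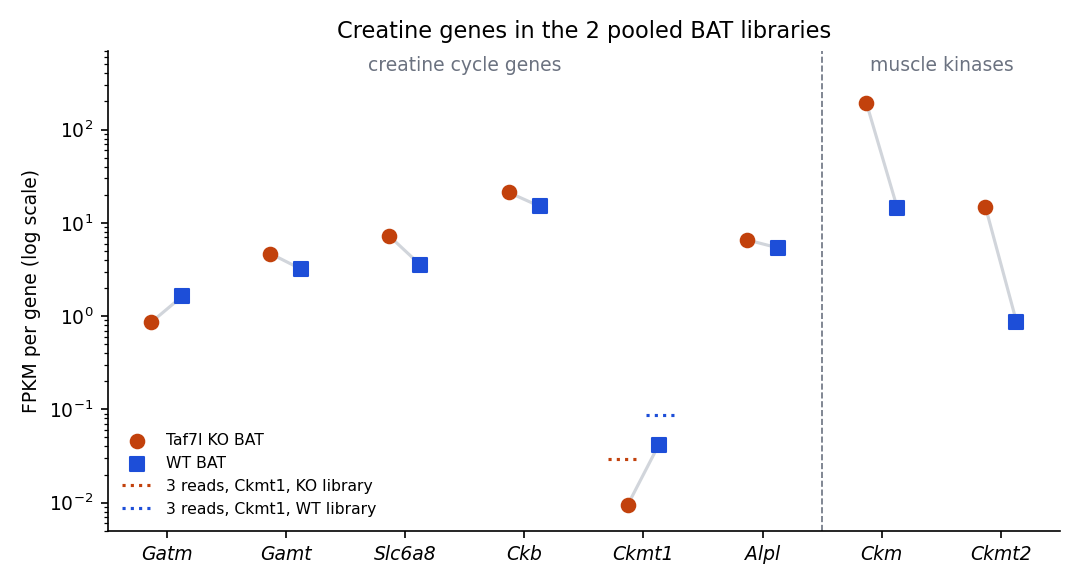
Level of each creatine gene in FPKM (log scale) in the Taf7l KO library (circles) and the WT library (squares), 1 pooled library each. Dotted lines mark the level of 3 reads for Ckmt1. Ckm and Ckmt2, right of the dashed line, differ by 13.5-fold and 17.0-fold, while the compared creatine cycle genes lie between 0.526-fold and 2.04-fold of WT.

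Ckm, on chromosome 7 of GRCm38.p6 from 19411094 to 19421583, was the most abundant creatine gene in the KO library. It had 195 FPKM in KO BAT and 14.5 FPKM in WT BAT. This is a 13.5-fold higher level in KO and a log2 ratio of 3.74. The values correspond to about 18586 reads in KO and 456 in WT, and the exact binomial 95% interval of the fold was 12.3 to 14.8. Such intervals cover counting error only and leave out the spread between mice. Among all genes compared 0.846% had a ratio at least as high, which placed Ckm at rank 103. Another transcript listed in the table, AK020867, lies inside the Ckm row and had 29.0 FPKM in KO against 1.90 FPKM in WT. Since the use of strand is not stated, reads of Ckm and of a transcript on its opposite strand cannot be told apart. The annotated antisense gene A930016O22Rik shares 315 of the 1366 windows of 50 bases of the Ckm transcript, which is 23.1%.

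Ckmt2, on chromosome 13 from 91853386 to 91876923, encodes the kinase that sits at the mitochondria of striated muscle and hands phosphocreatine to the cytosol. It had 14.8 FPKM in KO BAT and 0.870 FPKM in WT BAT. The fold was 17.0 and the log2 ratio 3.94, with 0.698% of all genes at least as high. The KO level rests on about 1492 reads and the WT level on about 29, so the interval of the fold was wider than that of Ckm, from 11.8 to 25.5, and it takes in the fold of Ckm. After correction for GC content and transcript length the log2 ratio was 4.05 for Ckmt2 and 3.52 for Ckm. Of the windows of the Ckmt2 transcript 2.51% are shared with the antisense gene 1700119I11Rik. The transcript AK018965, which lies within Ckmt2 in the table, stood at 0.0968 FPKM in KO and was listed at 0 in WT.

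**Figure D2:**
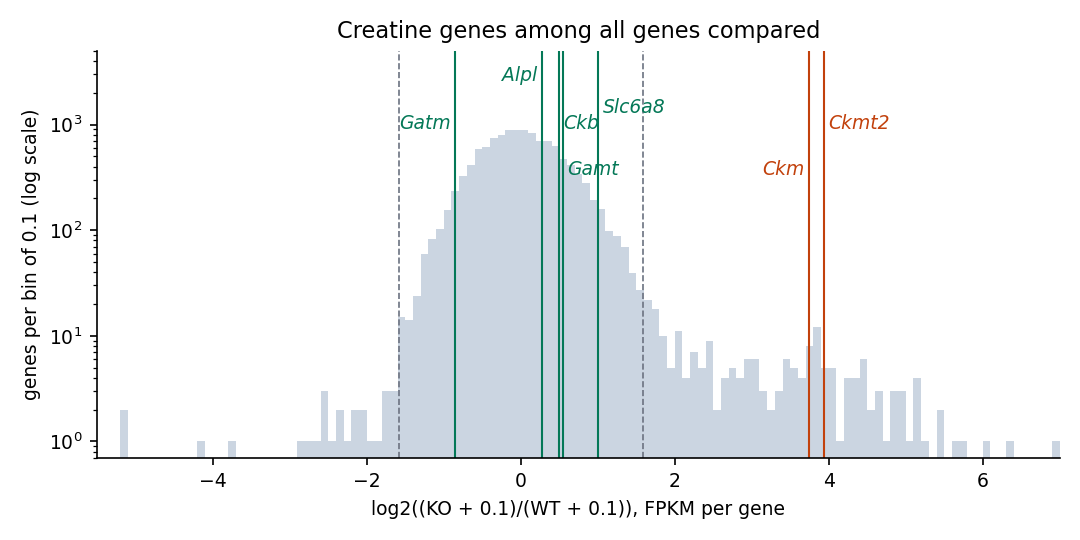
Distribution of the log2 ratio over the 12171 genes compared (grey, bins of 0.1, log scale), with a vertical line for each of the 7 creatine genes compared. Dashed lines mark 3-fold in either direction. Gatm lies at -0.85, Alpl, Ckb, Gamt and Slc6a8 between 0.28 and 1.01, and Ckm and Ckmt2 at 3.74 and 3.94.

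Ckb, on chromosome 12 from 111669355 to 111672338, encodes the brain-type kinase that acts in the creatine cycle of brown fat. It had 21.2 FPKM in KO BAT and 15.0 FPKM in WT BAT. The level in KO was 1.41 times that in WT, with about 2117 and 496 reads and an interval of 1.28 to 1.56. A ratio as high was found for 20.3% of all genes compared. Ckb was the highest of the creatine cycle genes in both libraries. Of its 50-base windows 21.9% are shared exactly with the annotated pseudogenes Ckb-ps1, Ckb-ps2 and Gm12892, so part of its reads could have been placed elsewhere. After a correction for GC content and transcript length its log2 ratio was 0.27, against 0.49 before.

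Ckmt1, on chromosome 2 from 121357773 to 121363737, encodes the mitochondrial kinase of tissues other than striated muscle. Its 3 rows summed to 0.00952 FPKM in KO BAT and 0.0419 FPKM in WT BAT. A count of 3 reads on its 1518-base transcript would give 0.0290 FPKM in KO against 0.0878 FPKM in WT. Both values lie under that floor, so no fold is given and Ckmt1 was not detectable above the floor at this depth. Between Ckmt1 and Ckmt2, Ckmt2 alone was above the floor.

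The makeup of the creatine kinase RNA differed between the libraries. Ckm held 84.4% of the summed kinase FPKM in KO BAT and 47.6% in WT BAT. Ckb held 9.18% in KO and 49.4% in WT, so that Ckm and Ckb were close to equal in WT and Ckm led in KO. Ckmt2 held 6.40% in KO and 2.86% in WT. The summed kinase level was 231 FPKM in KO against 30.4 FPKM in WT, a ratio of 7.59. Taken within a library, where scaling plays no part, there were 9.19 FPKM of Ckm per FPKM of Ckb in KO and 0.963 in WT. The ratio of Ckm to Ckmt2 was 13.2 in KO and 16.6 in WT. Reads of 50 bases can mostly tell these isoforms apart. The coding sequences of Ckb and Ckm are identical at 76.5% of aligned bases, and no 50-base window of either matches the other with up to 2 mismatches. Ckmt1 and Ckmt2 are identical at 72.7% and share 7 such windows, 0.487% of those of Ckmt2.

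**Figure D3:**
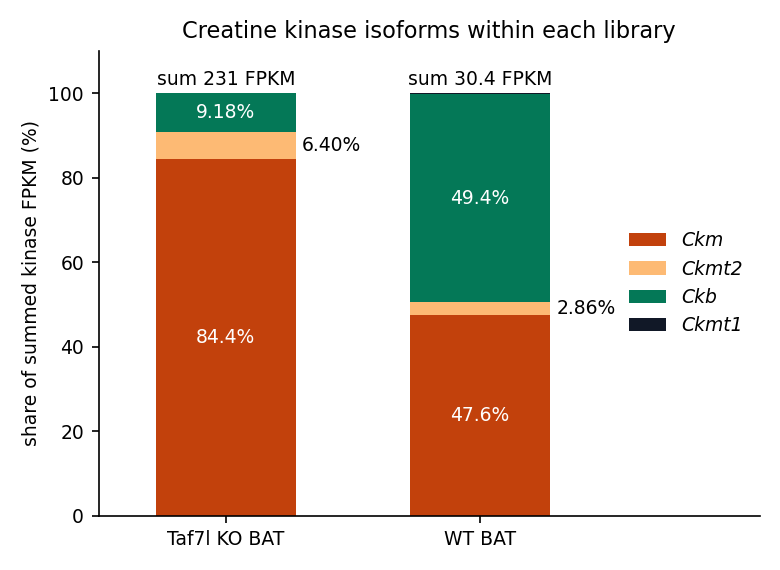
Share of each creatine kinase gene in the summed FPKM of the kinase genes (%), in the Taf7l KO library (left) and the WT library (right), with the sum above each bar. Ckm fills 84.4% of the KO bar and 47.6% of the WT bar. Ckmt1, at 0.00412% and 0.138%, is too thin to be seen.

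The synthesis genes were low and differed in opposite directions. Gatm, which encodes the first and regulated enzyme of the pathway, lies on chromosome 2 from 122594473 to 122611277. It had 0.855 FPKM in KO BAT and 1.63 FPKM in WT BAT, 0.526 times the WT level, with about 147 and 92 reads and an interval of 0.404 to 0.692. It was the only compared creatine gene lower in KO, and 4.92% of all genes had a ratio as low. Correction for GC content and transcript length brought its log2 ratio to -0.46, against -0.85 before, which no longer passed 1.5-fold. Gamt, which finishes the molecule, lies on chromosome 10 from 80258151 to 80261025 and has 2 rows. They had 2.56 and 2.13 FPKM in KO against 1.74 and 1.44 FPKM in WT. The sums were 4.69 FPKM in KO BAT and 3.18 FPKM in WT BAT, a fold of 1.47 with an interval of 1.12 to 1.96. Ratios as high were found for 18.0% of all genes. Gatm stood at 0.183 of the Gamt level in KO and at 0.511 in WT.

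The genes that supply methyl groups, arginine and glycine to creatine synthesis showed small differences. Of 23 listed genes 16 were compared. None was at least 1.5-fold higher in KO, against 16.5% of all genes compared, and 3 were lower by at least 1.5-fold, against 12.7%. The 16 had a median log2 ratio of -0.22. Mat2a and Mat2b, which encode the catalytic and regulatory subunits of the enzyme that makes the methyl donor S-adenosylmethionine, were 2 of the 3. Mat2a had 46.7 FPKM in KO against 80.7 FPKM in WT, and Mat2b had 31.9 FPKM in KO against 54.1 FPKM in WT. The third, Gnmt, whose enzyme uses up the same donor to methylate glycine, had 1.20 FPKM in KO against 1.86 FPKM in WT. The highest of the list, Ahcyl1, a relative of the hydrolase of S-adenosylhomocysteine, had 103 FPKM in KO against 144 FPKM in WT. Nnmt, a methyltransferase that draws on the donor for nicotinamide, had 46.6 FPKM in KO against 67.8 FPKM in WT.

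Slc6a8, the creatine transporter gene, lies on chromosome X from 73673133 to 73682502. It had 7.19 FPKM in KO BAT and 3.52 FPKM in WT BAT, a fold of 2.04 and a log2 ratio of 1.01. This was the highest ratio of the creatine cycle genes, and 5.82% of all genes compared were as high. The sum is made of 5 rows. In KO they stood at 2.04, 1.44, 1.27, 1.24 and 1.22 FPKM, and in WT at 1.03, 0.698, 0.609, 0.597 and 0.589 FPKM. The row folds lay between 1.98 and 2.08, so no single row made the difference. Since 3 of the rows match the same transcript, their likeness is no independent check. Transcript lengths could be matched to 3 of the 5 rows only, so no counting interval of the sum is given. Slc6a8 is a long transcript of high GC content, and with both corrected for its log2 ratio was 0.64.

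Alpl, on chromosome 4 from 137741731 to 137796384, had 6.56 FPKM in KO BAT and 5.39 FPKM in WT BAT. The fold was 1.22, with about 1196 and 324 reads and an interval of 1.08 to 1.38. It was the smallest difference among the creatine genes compared, 32.3% of all genes had a ratio as high, and the log2 ratio corrected for GC content and length was 0.02. Alpl is also a gene of bone-forming cells. None of 5 bone markers in the table reached 1 FPKM in either library, with summed levels of 0.1004 FPKM in KO against 0.117 FPKM in WT.

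Relative to the summed muscle fibre FPKM of the same library, the muscle kinases differed less between the libraries than Ckb did. Ckm came to 8.66% of the summed muscle fibre FPKM in KO BAT and 7.73% in WT BAT. Ckmt2 came to 0.657% in KO and 0.464% in WT, and Ckb to 0.942% in KO and 8.03% in WT. The muscle fibre markers had a median log2 ratio of 4.30 and a range of 1.84 to 5.40, and none was at 0 in either library. The ratio of Ckm lay inside that range, with 16 of the 22 markers above it and 6 below. For Ckmt2, 15 were above and 7 below. Such comparisons depend on the marker chosen. Myl1 and Pvalb were the largest parts of the WT sum of 187 FPKM, at 78.4 and 27.6 FPKM. Their log2 ratios, 1.84 and 2.75, lay below the median of the list, so the sum differed less than most markers did. Acta1, skeletal alpha-actin, had 348 FPKM in KO against 9.92 FPKM in WT, and Tnnc2, fast troponin C, 248 FPKM in KO against 7.88 FPKM in WT. There were 0.560 FPKM of Ckm per FPKM of Acta1 in KO and 1.46 in WT, but 4.12 per FPKM of Mb, myoglobin, in KO and 4.02 in WT. Nearness in level was measured as the distance between genes in the plane of their log2 levels in these 2 libraries. It rests on 2 values per gene and does not measure a shared pattern. The genes nearest to Ckm were Mylpf, Tnni2 and Tnnt3, all on the muscle fibre list, at distances of 0.21, 0.28 and 0.52. Mylpf, the fast regulatory myosin light chain, had 209 FPKM in KO BAT and 16.4 FPKM in WT BAT. The genes nearest to Ckmt2 were Ldb3, which encodes a Z-disc protein, Myl2, the regulatory light chain of slow and heart muscle, and Cox6a2, the muscle form of a cytochrome oxidase subunit, at distances of 0.22, 0.42 and 0.43. Ldb3 had 12.7 FPKM in KO BAT and 0.832 FPKM in WT BAT.

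**Figure D4:**
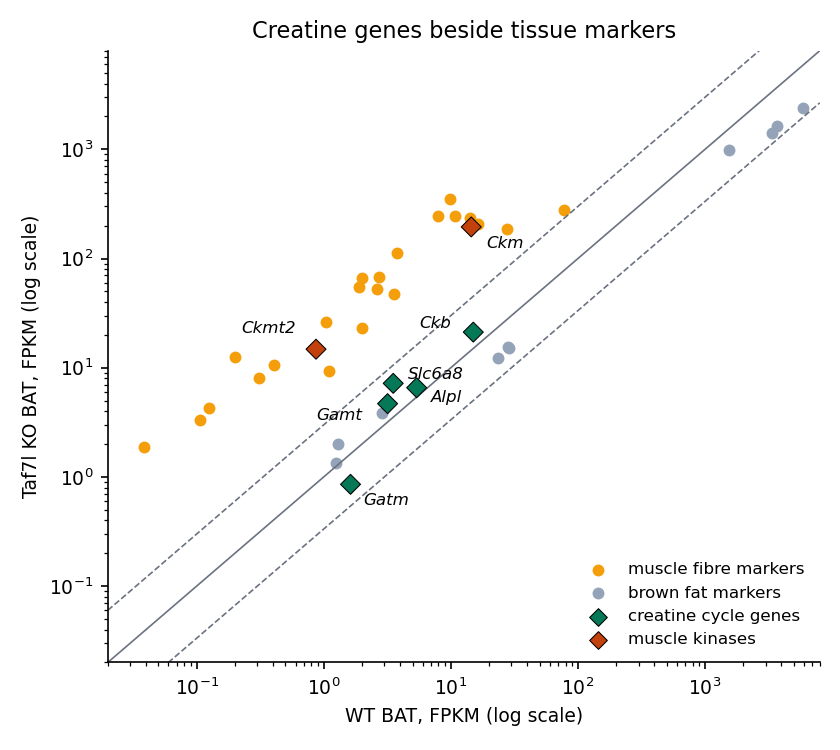
FPKM in the Taf7l KO library against FPKM in the WT library (both log scales) for the 7 creatine genes compared (diamonds), the 22 muscle fibre markers and the 10 brown fat markers. The solid line marks equal levels and the dashed lines 3-fold. Ckm and Ckmt2 lie among the muscle fibre markers above the upper dashed line, and the creatine cycle genes lie between the dashed lines.

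Per unit of Ucp1, the uncoupling protein gene of brown fat, Ckb and Slc6a8 stood higher in KO. Ucp1 itself had 1639 FPKM in KO BAT and 3720 FPKM in WT BAT. Because Ucp1 was lower in KO, a gene at equal levels in both libraries would also stand higher per unit of Ucp1. Ckb came to 1.29% of the Ucp1 level in KO and 0.404% in WT. Slc6a8 came to 0.439% in KO and 0.0947% in WT. This too depends on the marker chosen. Of 10 brown fat markers 7, Ucp1 among them, were at least 1.5-fold lower in KO, while Prdm16, Ebf2 and Zic1 were higher. Their folds were 1.54, 1.36 and 1.08, against 1.41 for Ckb and 2.04 for Slc6a8. The genes nearest to Ckb in level were Epb4.1, Sfrs9 and Ywhaz, those nearest to Slc6a8 were Cutl1, Ccdc9 and Slc44a2, and those nearest to Alpl were Rabgef1, 6530403A03Rik and Dync1li1. Gamt lay closest to Ptpn9, Fryl and Prkcbp1, and Gatm to AK042944, Zfp52 and 1700029J07Rik. These distances were small, from 0.010 to 0.058. The searches covered 4394 genes for Ckb and 11506 for the others, many of them close to equal in both libraries. Close neighbours were therefore to be found in any case, and that none of them is on the short marker lists says little. Markers of other cells of the pad differed less than those of muscle. Of 7 endothelial markers none was 1.5-fold higher or lower, with a summed level of 153 FPKM in KO against 132 FPKM in WT. Of the Schwann cell and neuron markers, which stand for cells rich in Ckb, 4 were compared. Their median log2 ratio was -0.37, and the summed level of the whole list was 59.6 FPKM in KO against 71.6 FPKM in WT. Macrophage markers summed to 71.6 FPKM in KO against 69.9 FPKM in WT, with 2 of 5 at least 1.5-fold higher. Smooth muscle markers summed to 41.1 FPKM in KO against 34.9 FPKM in WT, with 2 of the 4 compared at least 1.5-fold higher. Among all genes compared 16.5% were at least 1.5-fold higher and 12.7% at least 1.5-fold lower. Of 4 heart markers 1 was compared, with a log2 ratio of -0.45. The part of these cells in the levels of Ckb and Slc6a8 was not tested.

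Among the enzymes that rebalance adenine nucleotides beside creatine kinase, the muscle form of AMP deaminase stood apart from the rest. Ampd1, the AMP deaminase of skeletal muscle, had 3.93 FPKM in KO BAT and 0.197 FPKM in WT BAT. The fold was 19.9 and the log2 ratio 3.76. Ampd1 was low in WT, and no read count or interval was estimated for it. It came to 2.02% of the Ckm level in KO and 1.36% in WT, and like Ckm it lay in the range of the muscle fibre markers, whose part in its difference was not tested. Of the 6 genes compared on this list it alone was at least 3-fold higher, against 2.05% of all genes compared. At 1.5-fold 3 were higher, against 16.5% of all genes. Ampd2, the liver form, had 20.8 FPKM in KO against 12.4 FPKM in WT, and Ampd3, the erythrocyte form, had 8.01 FPKM in KO against 5.81 FPKM in WT. Ak1, the cytosolic adenylate kinase that is abundant in muscle, differed less than Ampd1, with 29.1 FPKM in KO against 19.0 FPKM in WT. Ak3, an adenylate kinase of the mitochondrial matrix, was close to equal, with 101 FPKM in KO against 107 FPKM in WT.

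At the mitochondrial membranes, where a mitochondrial kinase would meet its ATP, the carriers and channels were abundant and similar in both libraries. Of 6 genes compared none was 1.5-fold higher or lower, against 16.5% and 12.7% of all genes, and the median log2 ratio was 0.11. Slc25a4, the ADP/ATP carrier of heart and muscle, had 367 FPKM in KO against 368 FPKM in WT, and Slc25a5, the more general carrier, had 327 FPKM in KO against 294 FPKM in WT. Vdac1, an outer membrane channel, had 178 FPKM in KO against 170 FPKM in WT. Among the ion pumps that spend ATP, 4 of 6 were at least 1.5-fold higher in KO, against 16.5% of all genes compared. Only 1 of them, Atp2a1, was at least 3-fold higher, against 2.05% of all genes. Atp2a1, the calcium pump of fast fibres and also a member of the muscle fibre list, had 112 FPKM in KO against 3.78 FPKM in WT. Atp2a2, the calcium pump of slow fibres and many other cells, had 29.4 FPKM in KO against 19.4 FPKM in WT.

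**Figure D5:**
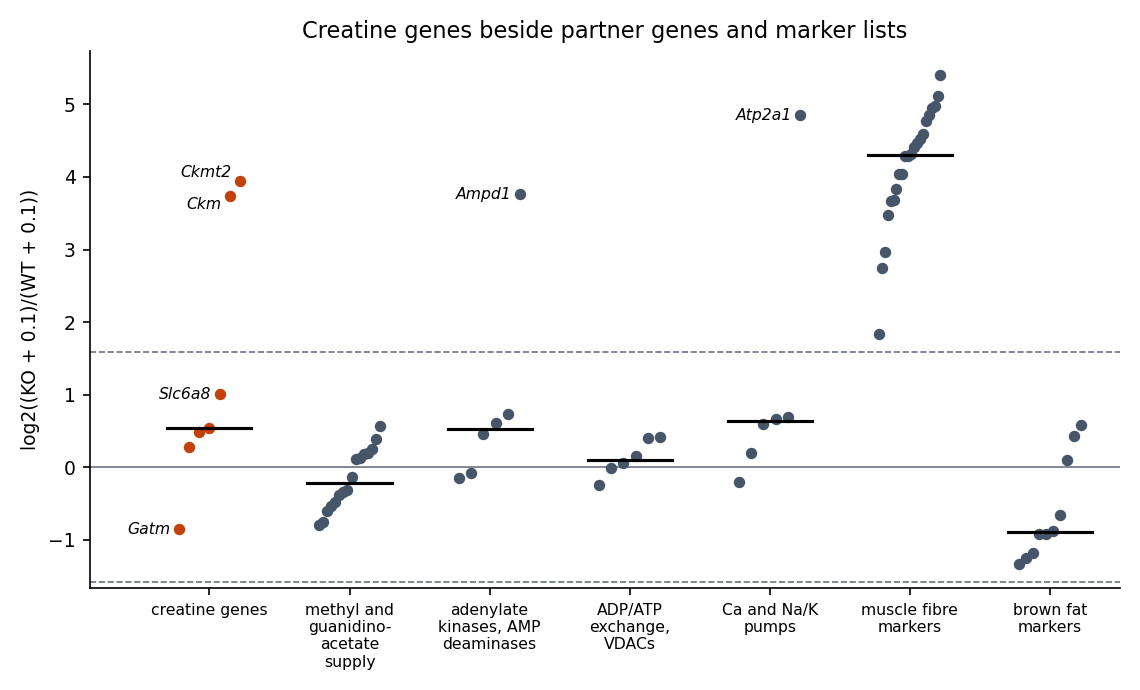
Log2 ratio of every compared gene of each list, 1 point per gene, with the median as a bar; dashed lines mark 3-fold. The creatine genes spread from -0.85 to 3.94, while the supply genes have a median of -0.22, the carriers and channels 0.11, the muscle fibre markers 4.30 and the brown fat markers -0.90.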

How the data were processed

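RNA of interscapular BAT was pooled from 6 Taf7l KO mice and from 6 WT mice, and 1 polyA mRNA-seq library per pool was sequenced with 50-base reads. The authors mapped the reads with TopHat and estimated transcript levels with Cufflinks, and the deposited values are FPKM per UCSC transcript, 55350 rows in all. Bowtie and mm10 are named in the submitters' processing notes, but the coordinates in the table do not match that build and were not used. Gene positions are those of RefSeq on GRCm38.p6, and transcript lengths, annotation and pseudogenes those of GENCODE M21.

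FPKM of all rows with 1 gene name were added up. Genes that reached 1 FPKM in either library were compared, with a pseudocount of 0.1 FPKM. The threshold of 3-fold is the study's. Groups come from the genotype labels. The members and lists were chosen with earlier results of these data known. Named genes are the creatine genes, all compared adenylate kinases and AMP deaminases, the 3 highest of each other partner list with any at 3-fold, reference markers and the 3 nearest genes per member; Mat2b, Gnmt and Mb were added after their values were seen. Of the genes that this rule names, 2 are not reported here. Older symbols were read through RefSeq synonyms. Of the lists, 1 adenylate kinase and 1 bone marker were not found by name.

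Depth was estimated from low values of genes with 1 exon and 1 row, where FPKM times effective length (fragments of 200 bases, SD 80) falls on multiples of 1 read. Of 103 such values in KO and 93 in WT, 70.9% and 91.4% came within 0.05 of a whole number. The KO estimate exceeds the read number that the labels give, so its absolute size is uncertain. Exact binomial 95% intervals on estimated reads cover counting error only. GC content and transcript length were available for 85.2% of genes compared. The calls were tested on simulated reads. Other pseudocounts, filters, scalings, ways to join rows and thresholds, and a correction for GC content with length, were tried as alternatives. The work used Python 3.11.15 with Biopython 1.88, numpy 2.4.6, pandas 2.3.3, matplotlib 3.10.9 and scipy 1.17.1.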

Additional observations from a re-analysis of the deposited data

Results flagged for a closer look

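A further row of the table, named CRT and described there as a creatine transporter mRNA, lies within Slc6a8 but carries another gene name and was not part of the sum for Slc6a8. It had 1.40 FPKM in KO BAT and 0.529 FPKM in WT BAT, a fold of 2.65, and drew attention as a signal in data outside the main comparison. With this row added, the log2 ratio of Slc6a8 was 1.07, against 1.01 without it. This addition was chosen after seeing the data.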

How the results depend on the processing

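No paired analysis was possible because each genotype has a single library. Of 143 values recomputed under 12 alternatives, 137 stayed within 1.5-fold (shares within 5 points), and none changed direction. Part of these values could not move, so the count overstates the stability. A filter on low values leaves the ratio of a gene as it is, and no creatine gene has a row under 200 bases. At 3-fold the same 2 members were higher under every alternative, and lowering the threshold to 2-fold added Slc6a8. The gap between the muscle kinases and the creatine cycle genes ranged from 2.93 to 3.52, the log2 ratio of Ckm from 3.52 to 3.84, that of Ckb from 0.27 to 0.59 and that of Gatm from -0.92 to -0.46. With a pseudocount of 1 FPKM the log2 ratio of Ckmt2 was 3.08. At a threshold of 1.5-fold 1 member was lower, which is Gatm. The partner lists had 16, 6, 6 and 6 genes compared. Of these partner genes 7 were at least 1.5-fold higher as reported, against 16.5% of all genes compared. At least 1.5-fold lower were 3 of them, against 12.7%. There were 5 lower with no filter, 4 higher when the highest row of a gene stood for it, and 3 higher and 1 lower with GC content and length corrected for. The causes were not tested. Scaling to the same sum over rows of 200 bases or more moved the median of all genes to 0.11. Depth limits Ckmt1, which no fold could be given for, and Ckmt2 in WT, with about 29 reads.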
